A study of Mus musculus with 12 samples.

Results

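The 9 genes described here mark or build the primitive endoderm, the extraembryonic layer that lines the blastocyst cavity. They were all 9 of the members chosen by name (Gata6, Gata4, Sox17, Sox7, Pdgfra, Dab2, Foxa2, Cubn and Amn), and each was a row of the count table of 26742 genes. In the mouse blastocyst, FGF4 made by the epiblast acts through FGF receptors, MEK and ERK and turns part of the inner cell mass into primitive endoderm, while NANOG holds the rest as epiblast. GATA6 starts the programme and GATA4, SOX17 and SOX7 follow it. The layer then gives rise to visceral endoderm, which takes up and secretes proteins, and to parietal endoderm, which lays down a thick basement membrane of laminin and type IV collagen. A small share of mouse embryonic stem (ES) cells in serum is known to drift to this fate, and inhibitors of MEK hold the cells as epiblast.

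RNA was measured in male ES cells of the B6J and the 129 genotype, grown in serum and leukaemia inhibitory factor (LIF). The cells received 1 µM of a MEK inhibitor or its solvent DMSO every day through day 5. The 4 groups were B6J with the inhibitor, B6J with DMSO, 129 with the inhibitor and 129 with DMSO, with 3 libraries in each and 12 in all. The labels name no clone and no passage, so a difference between genotypes and a difference between the lines used cannot be told apart. Nor do they say whether separate cultures stand behind the libraries of a group. The p-values thus measure how these libraries vary, and that variation may be technical only.

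Library totals ran from 81310810 to 96341637 counts in B6J with the inhibitor, from 74164171 to 82505523 in B6J with DMSO, from 65564142 to 82701438 in 129 with the inhibitor and from 62634533 to 73031809 in 129 with DMSO. The epiblast genes Pou5f1, Nanog and Sox2 were high in every library (at least 660, 303 and 169 CPM, which are counts scaled to a common library total by TMM), as in ES cells. All 17 genes of a fibroblast list, which feeder cells would express, were also detected in every library, with Col1a1 at 602 CPM or more. Their summed level was 5140 to 8510 CPM in B6J with the inhibitor and 3340 to 3940 CPM in B6J with DMSO. In 129 it was 5480 to 8670 CPM with the inhibitor and 2230 to 4370 CPM with DMSO.

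Replicate 1 of 129 with DMSO stood apart from its group, and the primitive endoderm genes were part of what set it apart. Chi-square per degree of freedom over all genes was 151 and 143 between it and replicates 2 and 3, and 6.74 between those 2. In the other groups it was 6.26 to 104, and replicate 1 was the farther one in B6J with DMSO (77.6 and 74.5, against 6.26) and in 129 with the inhibitor (73.5 and 60.3, against 13.8) as well. The 9 genes summed to 40967 counts there, or 0.0561% of the library, and to 3042 to 5497 counts (0.00395 to 0.00759%) in each of the other 11. In this library 176 of the 16627 genes tested (1.06%) were at least 4-fold above the mean of the other replicates, on the scale of CPM plus 0.1, and 7 of the 9 were among them. In each of the other 11 libraries 0 to 15 genes met the same limit. Results that include 129 with DMSO are therefore given with and without this library. Bulk RNA cannot tell a few cells with much of an RNA from many cells with little.

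Among the 9, Gata4, Sox7 and Sox17 had the largest ratios of that library to its group. Gata6, the zinc finger factor that starts the programme, had 33.9 CPM in replicate 1 of 129 with DMSO, against 3.18 and 2.96 CPM in replicates 2 and 3. In 129 with the inhibitor it had 2.94, 2.32 and 2.07 CPM. In B6J it had 2.14, 2.13 and 2.99 CPM with the inhibitor and 1.71, 1.78 and 1.89 CPM with DMSO. Outside the one library its whole range was thus 1.71 to 3.18 CPM. Gata4, which acts downstream of GATA6 and is itself a GATA factor, had 128 CPM in that library, against 3.84 and 2.98 CPM in replicates 2 and 3. With the inhibitor the 129 libraries had 7.0, 1.61 and 1.95 CPM of Gata4. The B6J libraries had 1.95, 2.06 and 1.83 CPM with the inhibitor, all below the 4.24, 3.74 and 3.62 CPM with DMSO. The ratio of replicate 1 to the mean of replicates 2 and 3 of 129 with DMSO was 37.4 for Gata4 and 11 for Gata6, the 13th and the 61st of the ratios of all tested genes.

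Sox17, an SRY-box factor of extraembryonic and gut endoderm, was near 0 elsewhere. It had 20.1 CPM (1462 counts) in replicate 1 of 129 with DMSO, against 0.7 and 0.593 CPM in replicates 2 and 3. The 129 libraries with the inhibitor had 1.52, 0.272 and 0.218 CPM, so replicate 1 was the highest there as well. The B6J libraries held only 16, 28 and 18 counts with the inhibitor and 18, 12 and 4 counts with DMSO. Sox7, a close relative of Sox17 that also serves in endothelium, behaved differently outside the library that stood apart. It had 9.1 CPM in that library, against 0.28 and 0.281 CPM in replicates 2 and 3, a ratio of 32.4. In 129 with the inhibitor it had 1.24, 0.845 and 0.775 CPM, above both of those replicates. Its next highest level was in B6J with the inhibitor, at 3.39, 3.06 and 3.57 CPM, against 1.11, 1.76 and 1.11 CPM in B6J with DMSO.

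Pdgfra encodes the PDGF receptor alpha, an early surface marker of primitive endoderm that mesoderm and fibroblasts also carry. It had 143 CPM in replicate 1 of 129 with DMSO, against 5.9 and 6.87 CPM in replicates 2 and 3, and 9.9, 4.38 and 4.97 CPM in 129 with the inhibitor. In B6J it had 3.95, 5.35 and 4.98 CPM with the inhibitor and 7.21, 8.09 and 6.25 CPM with DMSO, with no overlap. Dab2, an endocytic adaptor needed for the layer to sort to the surface, had 167 CPM in the library that stood apart, against 23 and 23.2 CPM in replicates 2 and 3 and 49.3, 34.4 and 36.8 CPM in 129 with the inhibitor. In B6J it had 27.4, 34.7 and 39.5 CPM with the inhibitor and 23.2, 25.8 and 27.2 CPM with DMSO. These B6J groups did not overlap, but the nearest libraries lay at 27.4 and 27.2 CPM.

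Foxa2, a forkhead factor of visceral endoderm and also of the anterior streak and definitive endoderm, was the one transcription factor that was high in all of 129 with DMSO. It had 22.0 CPM in replicate 1 and 6.46 and 7.74 CPM in replicates 2 and 3. With the inhibitor the 129 libraries had 1.91, 0.513 and 0.291 CPM, all lower. The B6J libraries had 0.127, 0.146 and 0.21 CPM with the inhibitor and 0.68, 0.529 and 0.459 CPM with DMSO.

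Cubn and Amn encode cubilin and amnionless, the pair of proteins that form the uptake receptor for intrinsic factor with vitamin B12 on visceral endoderm. The pair parted in the library that stood apart, and in B6J both were lower in every inhibitor library than in every DMSO library. Cubn had 38.7 CPM in replicate 1 of 129 with DMSO, against 3.68 and 3.51 CPM in replicates 2 and 3, and 1.39, 1.1 and 1.45 CPM in 129 with the inhibitor. In B6J it had 0.861, 1.08 and 1.24 CPM with the inhibitor and 2.09, 1.7 and 1.69 CPM with DMSO. Amn was the exception among the 9, with 0.398 CPM (29 counts) in replicate 1 of 129 with DMSO, below the 0.742 and 0.733 CPM of replicates 2 and 3. With the inhibitor it had 0.732, 0.483 and 0.4 CPM in 129. In B6J it had 0.62, 0.535 and 0.809 CPM with the inhibitor and 1.27, 1.25 and 1.23 CPM with DMSO.

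**Figure D1:**
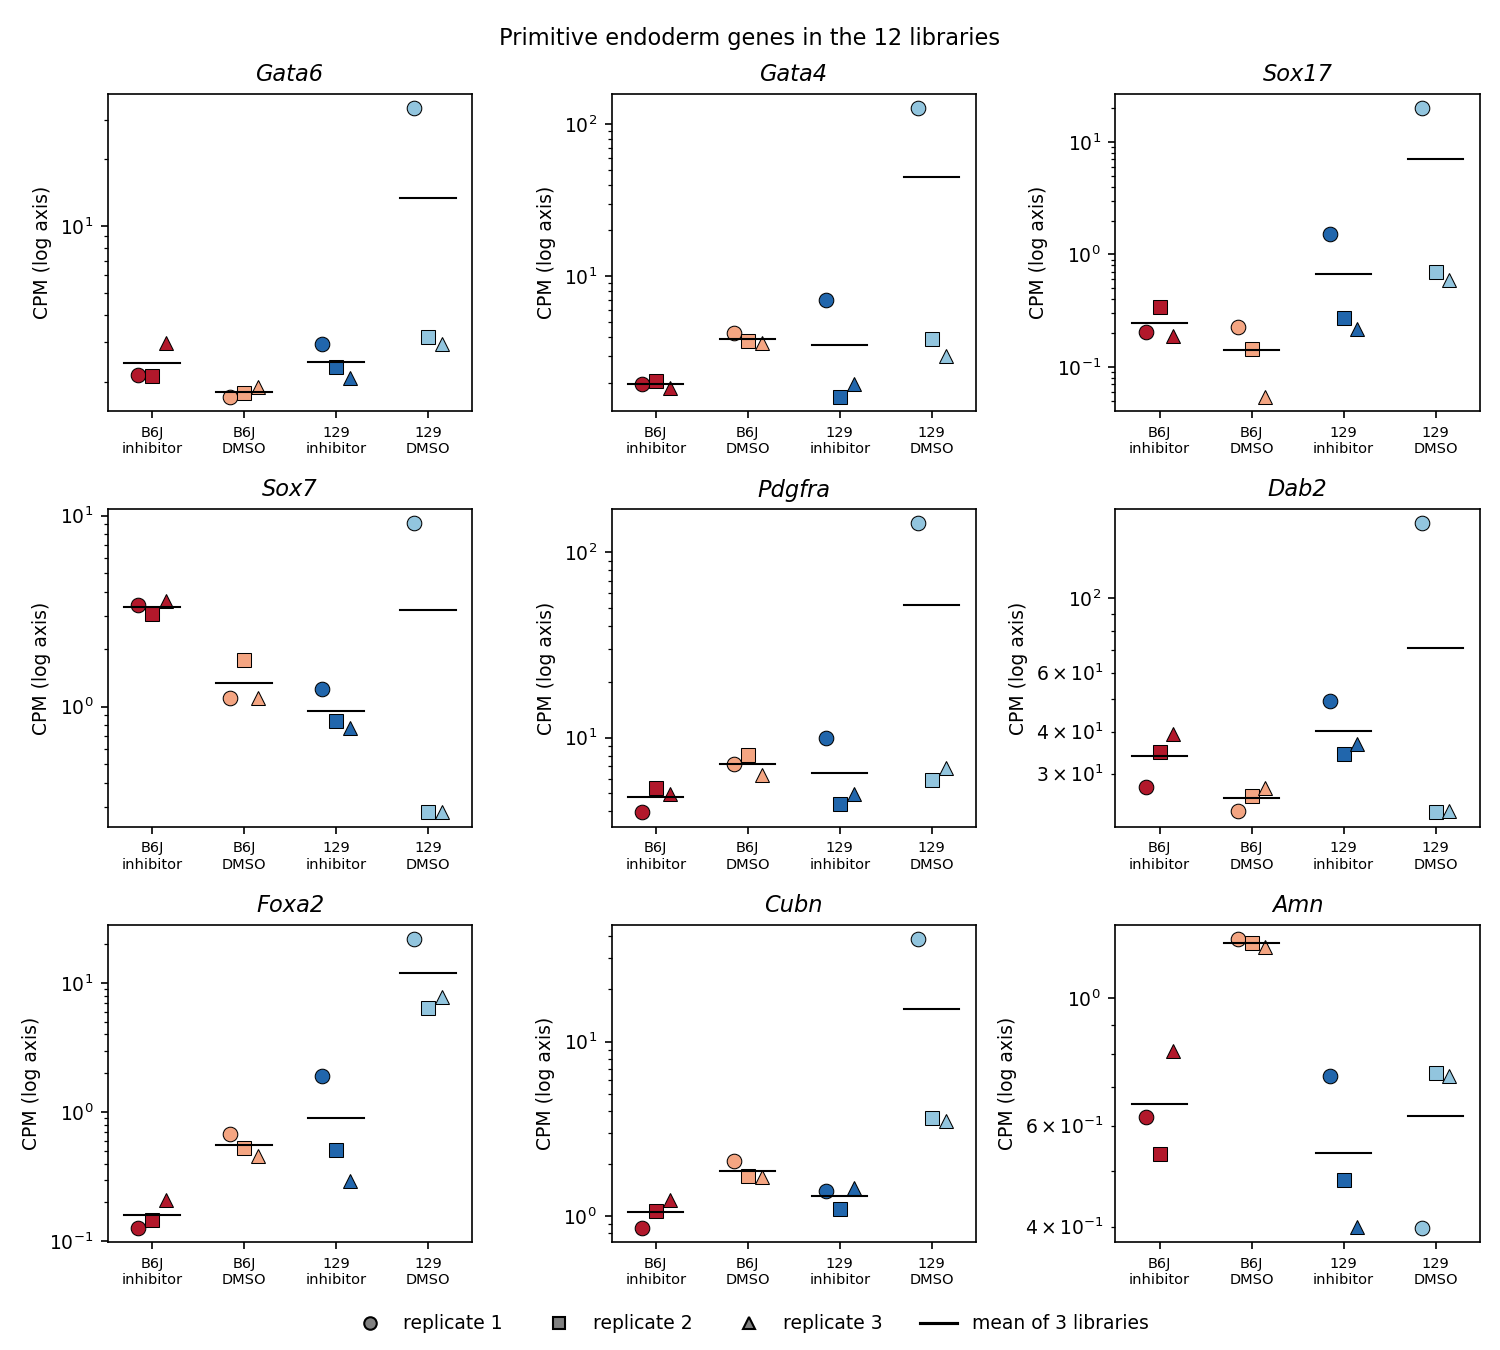
CPM on a log axis for each of the 9 genes, with 1 point per library and a line at the mean of the 3 libraries of a group; the shape gives the replicate number. Replicate 1 of 129 with DMSO is the highest library for every gene but Amn, for which it is the lowest.

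Per kilobase of exon the order of the genes changed in that library. In replicate 1 of 129 with DMSO, Gata4 led with 32.7 CPM per kb, before Dab2 (22.8), Pdgfra (14.3), Foxa2 (9.29), Gata6 (5.21), Sox17 (4.2), Sox7 (2.76), Cubn (2.59) and Amn (0.216). In B6J with DMSO, Dab2 led with 3.46 ± 0.273 CPM per kb (SD, n = 3). Gata4 followed with 0.99 ± 0.0848, then Pdgfra (0.716 ± 0.0918) and Amn (0.678 ± 0.0118), whose libraries overlapped. Below them came Sox7 (0.401 ± 0.114), then Gata6 (0.276 ± 0.0137) and Foxa2 (0.235 ± 0.0476), which also overlapped, then Cubn (0.122 ± 0.0154) and Sox17 (0.0297 ± 0.0181).

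Apart from Amn, which was below its group in replicate 1 of 129 with DMSO, replicate 1 of 129 with the inhibitor leaned the same way to a lesser degree. All 9 genes were above the mean of the other 2 replicates there, by a median of 0.62 on the log2 scale, and Sox17 alone passed 4-fold on the scale of CPM plus 0.1. Over all tested genes the median was 0.000675, and 15 genes (0.0902%) were at least 4-fold above. The share of all genes above that mean was not counted. Ratios of plain CPM were 6.2 for Sox17, 4.74 for Foxa2, 3.93 for Gata4, 2.12 for Pdgfra and 1.09 to 1.66 for the rest. Of 16 genes of parietal endoderm and basement membrane, 13 were above the mean of the other 2 replicates in this library (median 0.64). Of 9 tested visceral endoderm genes only 3 were (median -0.42). Fibroblast genes were also above the other replicates in this library, 17 of 17, with a median of 0.61, and their part in the pattern was not tested.

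Genes of the layer's later derivatives were read in the same library. Of the 16 genes of a parietal endoderm and basement membrane list, 16 were above replicates 2 and 3 in replicate 1 of 129 with DMSO, and 10 by at least 4-fold. Lama1, the laminin chain of early basement membranes, had 2370 CPM there, against 66.8 and 70.6 CPM. Col4a1, a type IV collagen chain, had 3850 CPM, against 354 and 352 CPM, and Pth1r, a parietal endoderm hormone receptor, had 89.9 CPM, against 4.97 and 4.45 CPM. The list summed to 17700 CPM in that library and to 3100 and 3140 CPM in replicates 2 and 3. Of the 13 visceral endoderm genes 9 were tested, 5 were above replicates 2 and 3, and 3 by at least 4-fold. These were Cited1 (90.8 against 3.19 and 2.5 CPM), Ihh (7.04 against 0.224 and 0.39 CPM) and Hnf4a (8.78 against 1.34 and 1.36 CPM). Ttr and Afp, secreted products of mature visceral endoderm that did not pass the filter on low counts, had 0.727 and 1.47 CPM there, and Ttr was at 0 in 10 of the 12 libraries.

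Genes of other cell types were read in the same library. The 6 epiblast genes were all below replicates 2 and 3, with a median log2 ratio of -0.43 and a sum of 2120 CPM, against 2930 and 3090 CPM. Nanog, which opposes GATA6 in the blastocyst, had 303 CPM, against 509 and 548 CPM. The 7 definitive endoderm and streak genes were all below the mean of replicates 2 and 3, with a median of -0.47. Of these, Cxcr4 (1.65 CPM, against 2.27 and 1.48 CPM) was not below both replicates. The median of all tested genes was -0.0526. Fibroblast genes were 17 of 17 above, all within a log2 ratio of 0.66 to 1.72 (median 0.95) and 0 by 4-fold, where the 9 primitive endoderm genes had a median of 3.42. Of 8 endothelial genes 4 were above and 1 by 4-fold, Cdh5 with 7.0 CPM, against 0.616 and 0.281 CPM, while Pecam1 had 33.7 CPM, against 56.6 and 64.9 CPM. The 16 genes of FGF and ERK signalling had a median of -0.02 and 0 passed 4-fold. What part any of these cell types has in the raised genes was not tested.

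**Figure D2:**
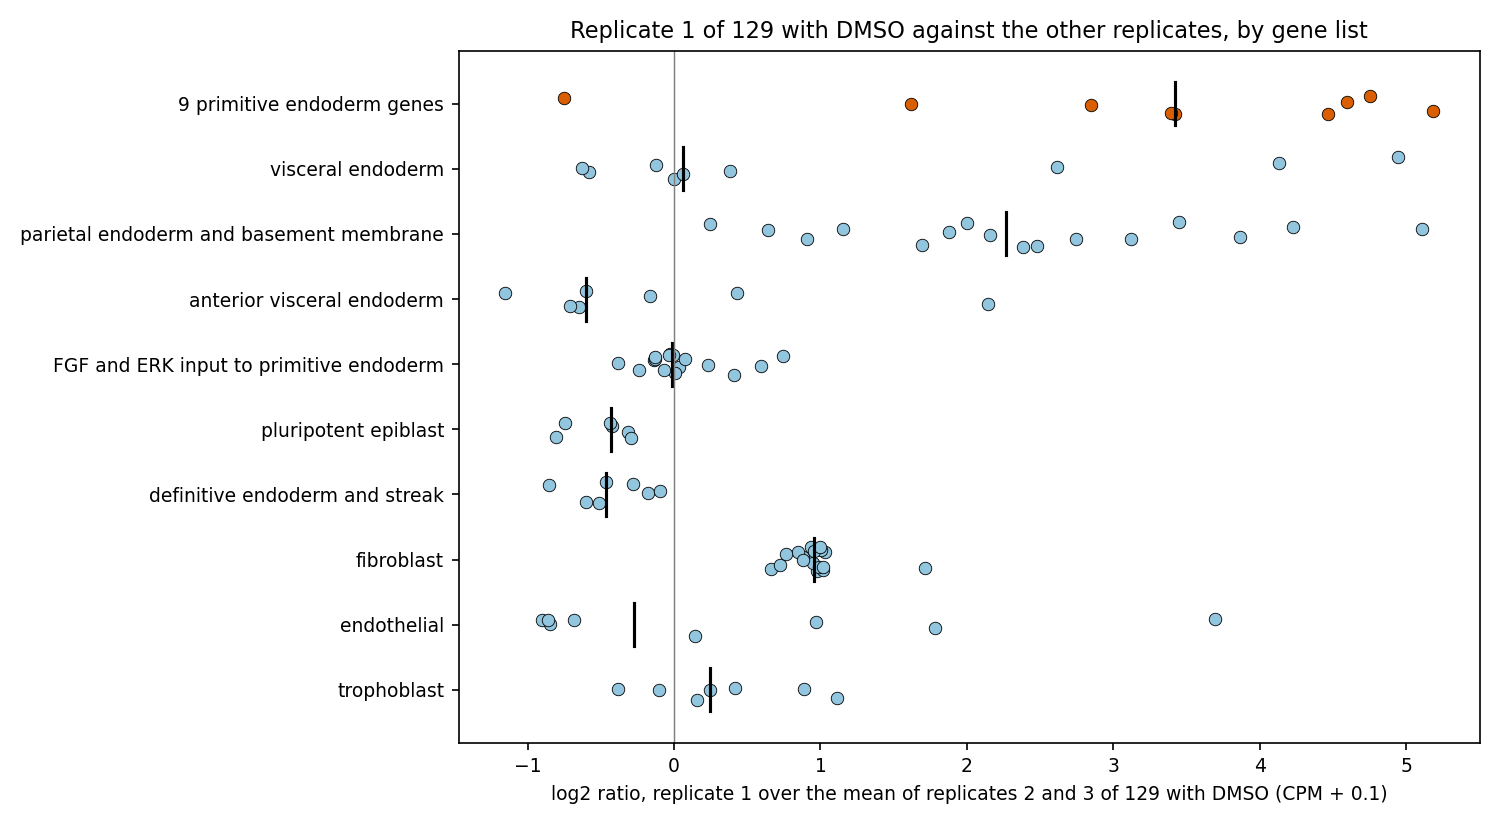
Log2 ratio of replicate 1 to the mean of replicates 2 and 3 of 129 with DMSO, on CPM plus 0.1, with 1 point per tested gene and a line at the median of each list. The medians of the primitive endoderm genes (3.42) and the parietal endoderm genes (2.27) lie right of that of the fibroblast genes (0.95), with Amn left of 0 and some parietal genes within or left of the fibroblast range, and the epiblast genes all lie left of 0.

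**Figure D3:**
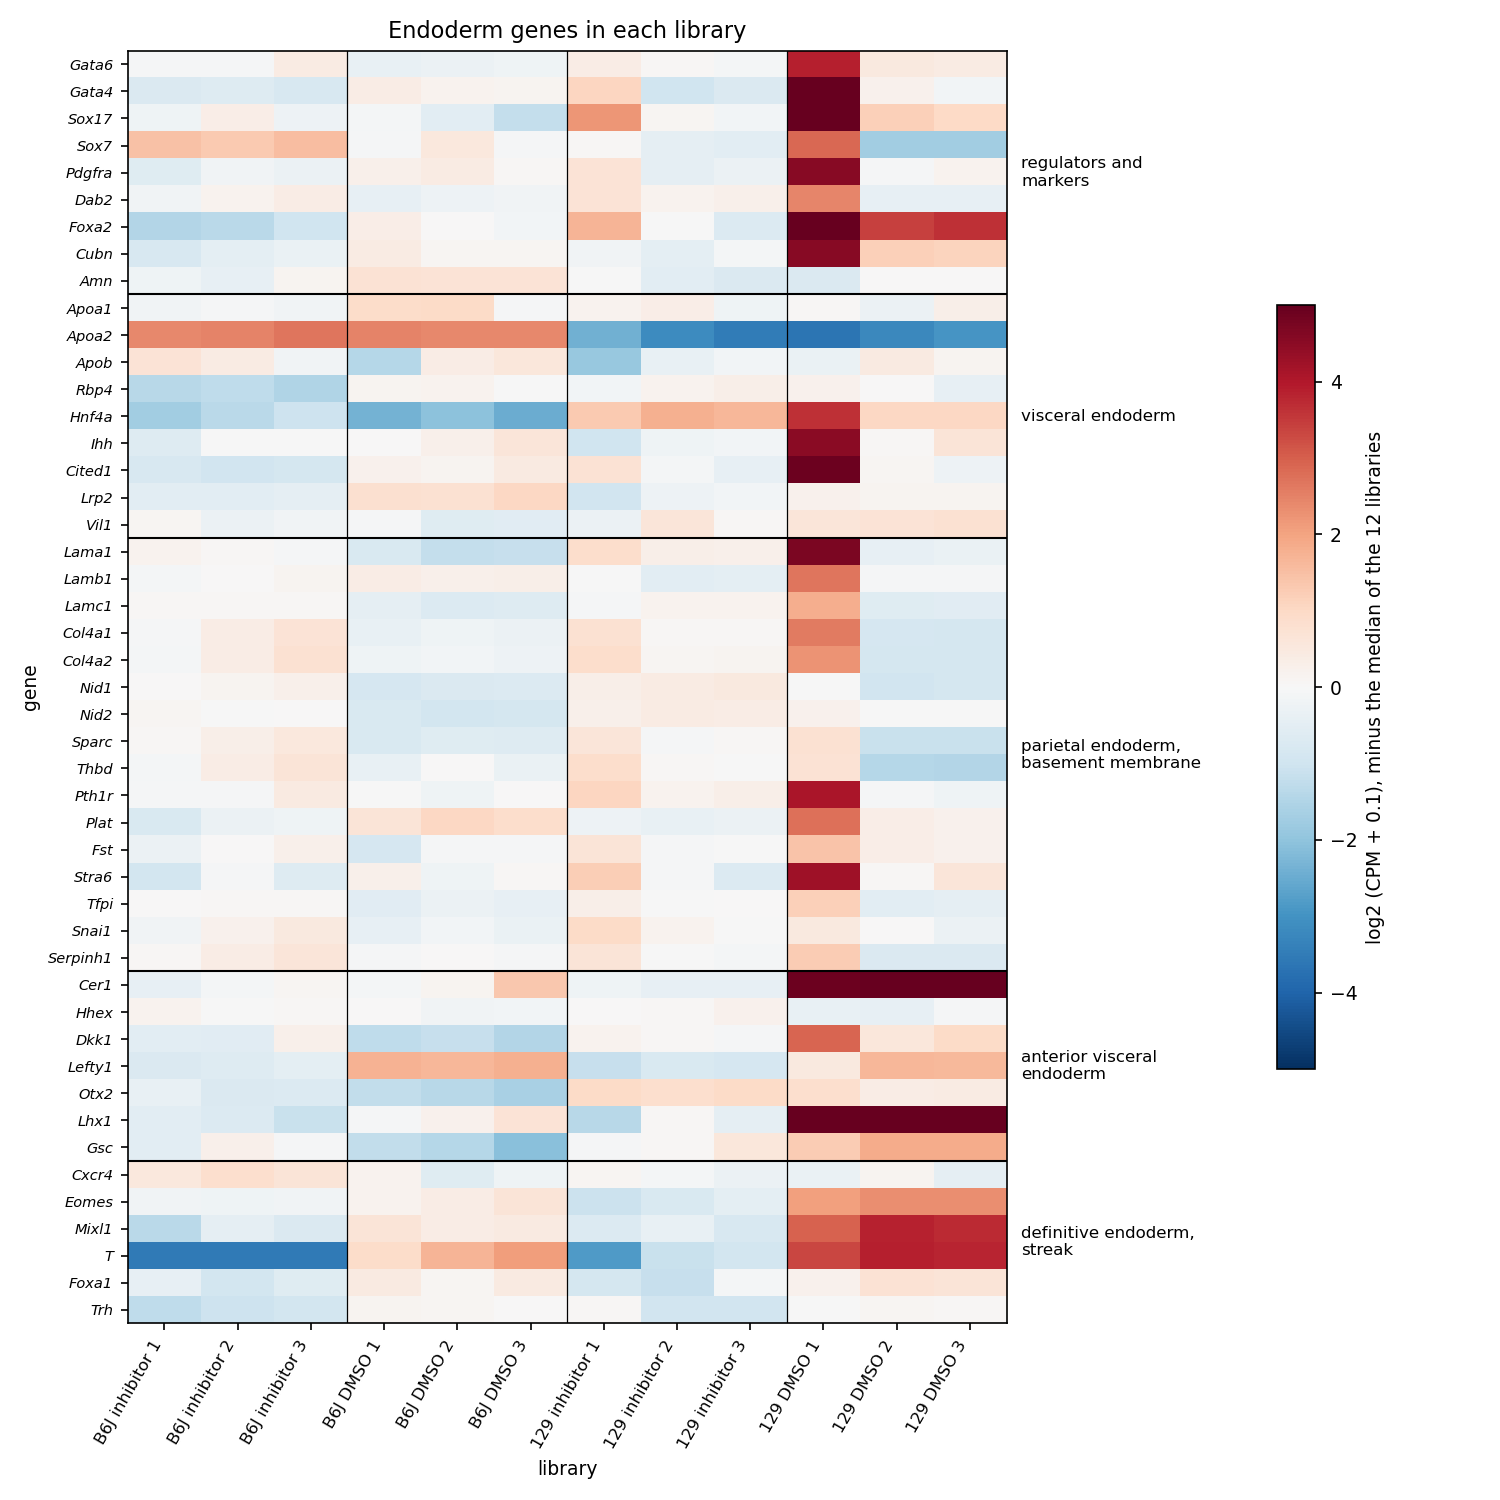
Log2 of CPM plus 0.1 for each gene in each library, minus the gene's median over the 12 libraries, with colours held at 5 beyond that value. Most parietal endoderm genes share the dark column of replicate 1 of 129 with DMSO with the regulators, whereas Cer1, Lhx1, Eomes, Mixl1 and T are dark in all 3 libraries of 129 with DMSO, as Foxa2 is.

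Over the 12 libraries, the log2 CPM of a gene and the mean of the other 8 had a Pearson r of 0.98 for Gata4 and Pdgfra, 0.93 for Gata6, 0.9 for Cubn, 0.86 for Sox17, 0.81 for Dab2, 0.66 for Foxa2, 0.37 for Sox7 and -0.39 for Amn. Over the 11 libraries without the one that stood apart, r was 0.76 for Pdgfra, 0.75 for Gata4, 0.58 for Foxa2, 0.54 for Sox17, 0.35 for Cubn, 0.33 for Gata6, 0.15 for Amn, -0.12 for Dab2 and -0.53 for Sox7. The shared pattern of Gata6, Cubn and Dab2 with the other genes thus rested largely on 1 library. These values describe libraries that share groups and a depth of the same order. Genes outside the 9 were ranked by their likeness to the mean of the 9, leaving out provisional names such as Gm and Rik names. The top 10 had r of 0.953 to 0.986 over the 12 libraries. Over the 11 they had 0.349 (Lamb1) to 0.819 (Stra6), lower for each of the 10. These 10 were chosen by r over the 12, which alone can favour a lower r over the 11. They were Msl3 (r = 0.986 and 0.763), Vps37c, Fut8, Gdpd5, Arhgap6, Cited1, Stra6, Flt1, Lamb1 and Bace2. Of these, Cited1 belongs to the visceral list and Stra6 and Lamb1 to the parietal list. Msl3, a chromatin protein of the MSL complex, had 77.8 CPM in replicate 1 of 129 with DMSO, against 12.4 and 13.6 CPM in replicates 2 and 3.

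GATA factors bind DNA at the core GATA. Because Gata4 and Gata6 were among the raised genes, the RefSeq promoter windows (250 bases before and 50 after a start, GRCm38.p6) were searched on both strands for 4 words, which are GATA with A or T before it and A or G after it. Windows were at hand for 5 of the 9 genes (Cubn, Foxa2, Pdgfra, Amn and Dab2), 8 windows in all, and 2 of the 8 held a word, where 29.8% of all 32851 windows did. These are a window of Dab2 at chr15:6299539-6299838 (plus strand) and a window of Foxa2 at chr2:148045415-148045714 (minus strand). The window of Pdgfra at chr5:75152001-75152300 (plus strand), a gene raised 22.4-fold in that library, held 0 of the words and is shown beside them. Each is written 5′ to 3′ along its gene, with the matched words in capitals.
Dab2: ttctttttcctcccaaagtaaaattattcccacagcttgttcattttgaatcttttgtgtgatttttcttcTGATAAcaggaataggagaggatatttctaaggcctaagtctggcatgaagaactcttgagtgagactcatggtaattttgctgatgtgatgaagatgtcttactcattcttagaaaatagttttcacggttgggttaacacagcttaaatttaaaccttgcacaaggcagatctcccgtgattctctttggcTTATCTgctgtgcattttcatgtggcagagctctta
Foxa2: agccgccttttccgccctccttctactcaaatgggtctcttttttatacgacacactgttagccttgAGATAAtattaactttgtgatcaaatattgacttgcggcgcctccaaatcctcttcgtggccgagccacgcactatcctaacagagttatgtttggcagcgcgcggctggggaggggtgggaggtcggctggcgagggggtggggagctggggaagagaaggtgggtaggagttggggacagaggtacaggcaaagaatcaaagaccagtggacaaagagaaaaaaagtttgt
Pdgfra: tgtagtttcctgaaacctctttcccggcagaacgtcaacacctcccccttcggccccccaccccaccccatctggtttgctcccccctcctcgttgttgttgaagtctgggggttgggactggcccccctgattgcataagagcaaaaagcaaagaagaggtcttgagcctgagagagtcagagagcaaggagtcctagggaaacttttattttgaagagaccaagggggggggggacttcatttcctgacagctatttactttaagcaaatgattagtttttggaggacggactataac
In the Dab2 window TGATAA begins 179 bases before the start, and TTATCT, the reverse complement of AGATAA, begins at base 14. In the Foxa2 window AGATAA begins 183 bases before the start. A match of letters is a description and no site of binding, and the share of these windows was near that of all windows.

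In 129, 6 of the 9 genes were lower with the MEK inhibitor and 0 higher by edgeR's quasi-likelihood test with Benjamini-Hochberg adjustment over all genes (called under 0.05), where 18.2% of all tested genes were lower and 17.4% higher. Foxa2 fell by 3.74 on the log2 scale (SE 0.651, edgeR adjusted p = 0.00107) and Cubn fell by 3.54 (SE 0.796, edgeR adjusted p = 0.00516). Gata6 fell by 2.45 (SE 0.762, edgeR adjusted p = 0.0267), Gata4 fell by 3.67 (SE 1.2, edgeR adjusted p = 0.0333), Pdgfra fell by 3.02 (SE 0.989, edgeR adjusted p = 0.0337) and Sox17 fell by 3.41 (SE 1.23, edgeR adjusted p = 0.0491). The other 3 were not called: Sox7 differed by -1.76 (edgeR adjusted p = 0.194), Dab2 by -0.83 (0.31) and Amn by -0.21 (0.614). The median of the 9 was -3.02, against -0.01 for all tested genes. Only 3 of the 9 were lower in every inhibitor library than in every DMSO library, where 24.4% of all genes were. They were Foxa2, Cubn and Gata6. The calls of Foxa2 and Cubn held when any 1 of the 12 libraries was left out. Those of Gata6, Gata4, Pdgfra and Sox17 were also lost without replicate 2 of 129 with the inhibitor (edgeR adjusted p = 0.0783, 0.106, 0.105 and 0.14) or without replicate 3 (0.0865, 0.109, 0.105 and 0.145), with log2 fold changes of -2.34 to -3.37. Those of Gata6 and Pdgfra were lost without replicate 1 of that group too (edgeR adjusted p = 0.0629 and 0.058), and that of Sox17 without any 1 library of B6J (0.0595 to 0.0666).

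Without replicate 1 of 129 with DMSO, the inhibitor's effect in 129 took another shape. Foxa2 still fell, by 2.98 (SE 0.54, edgeR adjusted p = 0.00127), and Cubn fell by 1.45 (SE 0.198, edgeR adjusted p = 0.000192). Sox7 now rose by 1.76 (SE 0.316, edgeR adjusted p = 0.0012) and Dab2 by 0.8 (SE 0.173, edgeR adjusted p = 0.0038), both opposite in sign to the fit of 12 libraries. Gata4 (0.05), Pdgfra (0.01) and Sox17 (0.05) were near 0, with edgeR adjusted p of 0.95, 0.984 and 0.967, and Gata6 was at -0.33 (edgeR adjusted p = 0.217). That made 2 genes lower and 2 higher, where 18.9% of all genes were lower and 20.3% higher, and the median of the 9 was 0.01. When replicate 1 with the inhibitor was also left out, Gata4 fell by 0.93 (edgeR adjusted p = 0.00253), Amn fell by 0.74 (edgeR adjusted p = 0.0495), Cubn fell by 1.49 and Foxa2 fell by 4.16, and Sox7 and Dab2 again rose (19.2% of all genes higher, 18.1% lower). With replicate numbers as a block within each background, Gata6 (-1.48, edgeR adjusted p = 0.0889) and Pdgfra (-1.54, edgeR adjusted p = 0.111) were no longer called. Whether the numbers pair the libraries is not known. Fibroblast genes moved with the treatment: 13 of 17 rose in 129 over the 12 libraries and 16 of 17 without replicate 1 with DMSO. Their part in the rise of Sox7 and Dab2 was not tested, and with their mean as a covariate and that library left out, Sox7 changed by 0.58 (edgeR adjusted p = 0.589) and Dab2 by -0.39 (edgeR adjusted p = 0.3). With the covariate over all 12 libraries, 8 genes were lower in 129, among them Sox7 (-4.25, edgeR adjusted p = 0.00233) and Dab2 (-2.68, edgeR adjusted p = 0.000681). The share of all genes lower in that fit is not given. The covariate was 4.76 to 5.79 in the DMSO libraries and 6.1 to 6.75 in the inhibitor libraries. Fits with it thus cannot tell fibroblast content from treatment. Its highest value among the DMSO libraries, 5.79, was in replicate 1 of 129.

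In B6J, 1 of the 9 genes was called over all 12 libraries. Amn averaged 0.655 ± 0.14 CPM with the inhibitor and 1.25 ± 0.0217 CPM with DMSO (SD, n = 3 each), and fell by 0.93 on the log2 scale (SE 0.293, edgeR adjusted p = 0.0319), where 16.5% of all genes were lower and 14.6% higher. The call was lost without any 1 DMSO library of B6J (edgeR adjusted p = 0.0696 to 0.0746) and without replicate 1 or 2 with the inhibitor (0.0956 and 0.127). It was also lost with the replicate block over all groups (edgeR adjusted p = 0.0567) or within each background (0.0695), and with the fibroblast covariate (0.189). The other 8 had wide errors in this fit, which shares its estimate of spread with 129 with DMSO. Gata4 averaged 1.94 ± 0.113 CPM with the inhibitor and 3.87 ± 0.331 CPM with DMSO, yet its log2 fold change of -0.99 had an SE of 1.14 (edgeR adjusted p = 0.557). Without replicate 1 of 129 with DMSO the SE fell to 0.44 (edgeR adjusted p = 0.101), and with the B6J groups alone it was 0.128 (edgeR adjusted p = 0.00109).

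By library, most of the genes separated the B6J groups. Sox7, Dab2 and Gata6 were higher in all 3 inhibitor libraries than in all 3 DMSO libraries, and Gata4, Pdgfra, Foxa2, Cubn and Amn were lower, 3 and 5 of 9, where 24.3% and 25.7% of all genes did so. Without replicate 1 of 129 with DMSO, Sox7 rose by 1.33 (SE 0.226, edgeR adjusted p = 0.000797) and Dab2 by 0.42 (SE 0.151, edgeR adjusted p = 0.0495), and Foxa2 fell by 1.76 (SE 0.633, edgeR adjusted p = 0.0482), Amn fell by 0.93 (SE 0.244, edgeR adjusted p = 0.0115) and Cubn fell by 0.78 (SE 0.184, edgeR adjusted p = 0.00646). In that fit 17.9% of all genes were higher and 19.1% lower. With the 2 B6J groups alone, 1 gene was higher and 5 lower (18.2% and 19.4% of all genes). Fibroblast genes rose here too, 11 of 17 over the 12 libraries and 14 without that one. Their mean was tried as a covariate, although it did not overlap between the treatments and so cannot be told apart from them. Over the 12 libraries Sox7 then changed by -1.40 (edgeR adjusted p = 0.216) and Dab2 by -1.49 (edgeR adjusted p = 0.0179). With replicate 1 of 129 with DMSO left out as well, Sox7 changed by 0.66 (edgeR adjusted p = 0.193) and Dab2 by -0.3 (edgeR adjusted p = 0.157), and neither was called. Their part in the higher Sox7 and Dab2 levels was not tested.

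**Figure D4:**
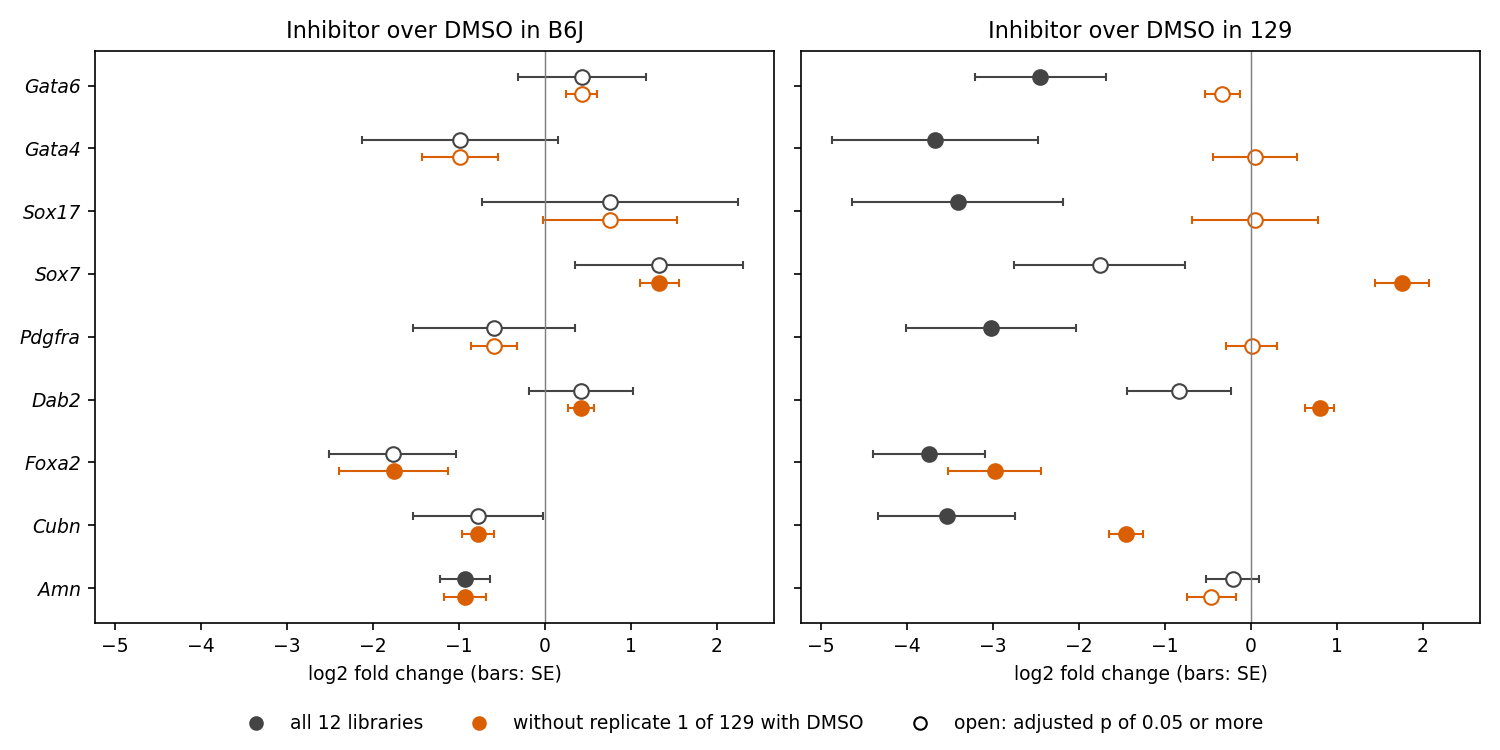
Log2 fold change of the inhibitor over DMSO in B6J and in 129 for each gene, with bars of 1 SE, over all 12 libraries (dark) and without replicate 1 of 129 with DMSO (orange); open circles were not called. In 129 the values of Gata4, Sox17 and Pdgfra move to near 0 and those of Sox7 and Dab2 change side, while Foxa2 and Cubn stay below 0 and called.

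The difference between the responses (B6J minus 129) was called for 0 of the 9 genes, by edgeR, DESeq2 or limma-voom, where edgeR called 0.71% of all genes as higher and 0.77% as lower. At an unadjusted edgeR p under 0.05, 4 of the 9 had a higher value in B6J, and by DESeq2 and limma-voom 0 did. The share of all genes at that unadjusted limit was not counted, so the 4 cannot be set against it. DESeq2 gave no p for 7 of the 9 genes and a p for Foxa2 and Amn. The edgeR values included 4.17 for Sox17 (SE 1.9, adjusted p = 0.389), 2.88 for Gata6 (SE 1.06, adjusted p = 0.252) and 2.76 for Cubn (SE 1.07, adjusted p = 0.285). Without replicate 1 of 129 with DMSO, again 0 were called (1.9% of all genes higher, 1.55% lower). At an unadjusted edgeR p under 0.05 there were 2, again with no share of all genes counted. Sox7 then differed by -0.43 (SE 0.385) and Dab2 by -0.38 (SE 0.227). Without replicate 1 of both 129 groups Foxa2 was called, at 2.39 (SE 0.432, edgeR adjusted p = 0.0141), where 1.91% of all genes were higher and 1.68% lower. Some of the FGF and ERK genes were called in both genotypes. Others were not, among them the ETS factor Etv5 (0.13 in B6J, edgeR adjusted p = 0.424, and 0.17 in 129, edgeR adjusted p = 0.265). Dusp6, a phosphatase that ERK induces as feedback, had 39.9, 39.1 and 41.7 CPM with the inhibitor and 119, 114 and 107 CPM with DMSO in B6J. In 129 it had 26.5, 26.1 and 27.5 CPM with the inhibitor and 81.9, 102 and 91.1 CPM with DMSO, so replicate 1 of 129 with DMSO lay 0.24 below its group on the log2 scale. Of the 16 genes of that list 5 fell and 2 rose in B6J (16.5% and 14.6% of all genes), and 6 fell and 2 rose in 129 (18.2% and 17.4% of all genes), with Dusp6, Spry4, Etv4, Shc1 and Mapk3 lower in both and Fgf4 and Grb2 higher in both.

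In DMSO, B6J differed from 129 in 5 of the 9 genes, 1 higher and 4 lower, where 10.4% of all genes were higher and 10.5% lower. Amn was higher in B6J by 1.0 (SE 0.297, edgeR adjusted p = 0.0332). Foxa2 was lower by -4.44 (SE 0.678, edgeR adjusted p = 0.000799), Sox17 by -5.63 (SE 1.43, edgeR adjusted p = 0.0161), Cubn by -3.07 (SE 0.775, edgeR adjusted p = 0.0157) and Gata6 by -2.9 (SE 0.778, edgeR adjusted p = 0.021). Without replicate 1 of 129 with DMSO, Foxa2 (-3.67, edgeR adjusted p = 0.000766), Cubn (-0.98, edgeR adjusted p = 0.00431) and Gata6 (-0.77, edgeR adjusted p = 0.0171) were lower in B6J and Sox7 was higher (2.24, edgeR adjusted p = 0.000427), where 11.9% of all genes were lower and 12% higher. Sox17 (-2.17, edgeR adjusted p = 0.0738) and Amn (0.76, edgeR adjusted p = 0.0709) were then not called. Over 12 libraries, the call of Foxa2 held without any 1 library. Those of Cubn (edgeR adjusted p = 0.0501 to 0.0587), Gata6 (0.0663 to 0.0721) and Amn (0.0727 to 0.0795) were lost without any 1 DMSO library of B6J, and that of Sox17 without replicate 2 or 3 of that group (0.0607 and 0.0646). Without replicate 2 or 3 of 129 with DMSO, 7 genes were lower. Replicate 1 has more weight in its group in these fits, and their share of all genes is not given. Gata6 was at 1.79 ± 0.0893 CPM in B6J (SD, n = 3), against 3.18 and 2.96 CPM in replicates 2 and 3 of 129.

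With the inhibitor, Foxa2 alone of the 9 was called between genotypes, at 0.161 ± 0.0438 CPM in B6J and 0.903 ± 0.875 CPM in 129 (SD, n = 3 each; log2 difference -2.46, SE 0.729, edgeR adjusted p = 0.0361), where 9.47% of all genes were lower and 8.9% higher. The call was absent with limma-voom, with halved counts and with these 2 groups alone, and without replicate 1 of 129 with the inhibitor (-1.29, edgeR adjusted p = 0.197), any 1 library of B6J with the inhibitor (0.0705 to 0.113) or replicate 2 or 3 of B6J with DMSO (0.0515 and 0.0501). Sox7 averaged 3.34 ± 0.258 CPM in B6J and 0.954 ± 0.252 CPM in 129, with no overlap. Its difference of 1.81 was not called over 12 libraries (SE 0.998, edgeR adjusted p = 0.259) and was called without replicate 1 of 129 with DMSO (SE 0.233, edgeR adjusted p = 0.000212; 11.1% of all genes higher, 11.9% lower), a library outside this comparison that shares only the estimate of spread.

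Some streak genes, like Foxa2, were high in all of 129 with DMSO. Cer1, Lhx1, Eomes, Mixl1 and T, genes of the streak, the node or anterior endoderm, were higher in all 3 of these libraries than in the other 9. Lhx1 had 0.069, 0.362 and 0.218 CPM in 129 with the inhibitor and 14.1, 22.2 and 24.1 CPM in 129 with DMSO, and fell by 6.55 (SE 0.459, edgeR adjusted p = 1.98e-06). T, the factor Brachyury, had 1.19, 4.17 and 4.86 CPM with the inhibitor and 93.5, 137 and 131 CPM with DMSO, and fell by 5.14 (SE 0.467, edgeR adjusted p = 1.14e-05). In B6J, Lhx1 had 0.202, 0.17 and 0.105 CPM with the inhibitor and 0.315, 0.409 and 0.607 CPM with DMSO. These genes were lowest, within 129 with DMSO, in replicate 1, where Foxa2 was highest. Cer1 and Lhx1 belong to a list of 7 anterior visceral endoderm genes. Of these, 2 were above the mean of replicates 2 and 3 in replicate 1, and 1 by at least 4-fold. That gene was Dkk1, with 5.41 CPM in replicate 1, against 0.98 and 1.31 CPM in replicates 2 and 3. Of the 7 definitive endoderm and streak genes, 5 fell and 0 rose in 129, where 18.2% of all genes were lower and 17.4% higher. In B6J, 5 fell and 2 rose, where 16.5% of all genes were lower and 14.6% higher.

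Positions are from GENCODE M21 on GRCm38, and all 9 genes are protein coding. Gata6 (ENSMUSG00000005836) lies on chromosome 18 from 11052064 to 11085635, Gata4 (ENSMUSG00000021944) on chromosome 14 from 63198922 to 63271692 and Sox7 (ENSMUSG00000063060) on the same chromosome from 63943673 to 63950732. Sox17 (ENSMUSG00000025902) lies on chromosome 1 from 4490931 to 4497354, Pdgfra (ENSMUSG00000029231) on chromosome 5 from 75152292 to 75198215 and Dab2 (ENSMUSG00000022150) on chromosome 15 from 6299788 to 6440712. Foxa2 (ENSMUSG00000037025) lies on chromosome 2 from 148042877 to 148046969, Cubn (ENSMUSG00000026726) on chromosome 2 from 13276338 to 13491813 and Amn (ENSMUSG00000021278) on chromosome 12 from 111271095 to 111276426. Exons of Gata6, Sox17, Pdgfra, Dab2 and Cubn overlap those of genes on the opposite strand, and those of Pdgfra also overlap Mir7025 on the same strand. The counting's strand setting is not given in the sources used here. Reads of such overlaps may thus be added to their counts or missing from them.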

How the data were processed

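RNA of 12 libraries was sequenced from a stranded polyA kit, per the labels' protocols. The authors deposited whole-number read counts per gene, not normalized. Per the submitters' processing notes the builds were mm10 and GRCm38 and the tools included STAR (2.7.10), HTSeq (0.6.1p1), SAMtools and DESeq. Annotation and strand setting: not given in the sources used here. Even numbers made up 70.09 to 73.37% of the counts between 1 and 20, against 52.06 to 55.17% of those between 101 and 1000, so halved counts were tried.

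Genes passing filterByExpr (minimum count 10, minimum total 15; 16627 genes, all 9 members) were scaled by TMM and tested with edgeR 4.0.16 (R 4.3.3) in 1 quasi-likelihood fit of 4 group means over 12 libraries. Contrasts were the inhibitor over DMSO in B6J and in 129, the difference between these (B6J minus 129), and B6J over 129 under each treatment. Adjusted p-values are Benjamini-Hochberg over all tested genes, called under 0.05. Levels are CPM over TMM-scaled totals. The fit was tried on simulated data with the same spread for every gene and no library that stood apart. That trial thus does not cover a library such as replicate 1 of 129 with DMSO. Alternatives were DESeq2 1.42.0, limma-voom 3.58.1, other size factors, no filter, a replicate block, fits of 2 groups, a fibroblast covariate, and each library left out in turn. Deviations of libraries with the same number had correlations of 0.442, 0.295 and 0.222 in 129, and -0.188, 0.088 and -0.17 in B6J. Replicates 2 and 3 of 129 with unlike numbers had 0.194 and 0.209, near those with the same number. Deviations within a group sum to 0, so a shift of replicate 1 in both groups alone can give such values. The correlations thus do not show that the numbers pair replicates 2 and 3. The members and gene lists were chosen with earlier results of these data known. The text names the 9 members, genes of the lists, and the 10 genes most correlated with the members' mean among genes without provisional names. A listed gene is not reported here and was left out of its list's counts.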

Additional observations from a re-analysis of the deposited data

How the results depend on the processing

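Over the 12 libraries 6 genes were lower in 129 with the inhibitor, and 1 was by DESeq2 (of the 2 with an adjusted p), 1 by limma-voom, 3 with a replicate block over all groups, 4 with the replicate block within each background, 2 with these groups alone, 8 with the fibroblast covariate and 3 with the covariate and no replicate 1 of 129 with DMSO. In B6J, 1 gene was lower, against 2 by DESeq2, 5 with these groups alone, 7 with the fibroblast covariate and 5 with the covariate and that library left out, and 0 were higher, against 1 with these groups alone. The difference between responses had 0 higher, against 4 with the covariate and 1 with the covariate and that library left out. Between genotypes in DMSO, 1 was higher, against 0 with the replicate block and 0 with these groups alone, and 4 were lower, against 1 by DESeq2, 1 by limma-voom, 1 with these groups alone and 7 with the covariate. With the inhibitor, 0 were higher, against 1 with these groups alone and 1 with the covariate and the library left out, and 1 was lower, against 0 with limma-voom, 0 with halved counts, 0 with these groups alone and 2 with the covariate and the library left out. The causes were not tested. Apart from the B6J groups alone, the shares of all genes called in these other fits are not given. The counts of members thus cannot be set against all genes there. Other size factors and no filter kept every member's direction and call.

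With libraries left out, the counts of genes were 0 to 2 higher and 2 to 6 lower in 129, 0 to 2 higher and 0 to 5 lower in B6J, 0 to 1 higher and 0 lower for the difference, 0 to 2 higher and 1 to 7 lower between genotypes in DMSO, and 0 to 1 higher and 0 to 1 lower between genotypes with the inhibitor. Shares of all genes are given above only where replicate 1 of 129 with DMSO, or of both 129 groups, was left out. Log2 fold changes that changed sign ranged, in 129, from -4.63 to 0.05 for Gata4, -4.85 to 0.05 for Sox17, -2.3 to 1.76 for Sox7, -3.55 to 0.01 for Pdgfra and -1.25 to 0.8 for Dab2. For the difference they ranged from -1.04 to 3.66 for Gata4, -0.43 to 3.64 for Sox7, -0.6 to 2.95 for Pdgfra and -0.38 to 1.67 for Dab2. In DMSO they ranged from -4.09 to 0.18 for Gata4, -1.83 to 2.24 for Sox7, -3.38 to 0.17 for Pdgfra and -1.91 to 0.14 for Dab2, and with the inhibitor from -0.21 to 0.14 for Gata6, -1.2 to 0.12 for Gata4 and -0.64 to 0.03 for Pdgfra.

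With the fibroblast covariate, signs turned in B6J for Gata6 (-1.83), Sox17 (-3.31), Sox7 (-1.4) and Dab2 (-1.49). With the covariate and no replicate 1 of 129 with DMSO they turned in B6J for Gata6 (-0.18), Sox17 (-1.59) and Dab2 (-0.3), in 129 for Sox7 (0.58), between genotypes in DMSO for Sox7 (1.7) and in the difference for Amn (0.02). Sox7 in DMSO was 0.46 by limma-voom, and Gata6 with the inhibitor was 0.07 with the replicate block. The covariate with a library left out and the block within backgrounds were chosen after seeing the data. At 4 to 28 counts in B6J, Sox17 allows no firm direction there.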

Other observations

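A pair of visceral endoderm genes differed between the genotypes in every library, whatever the treatment. Of the 9 tested genes of that list, 2 were higher and 2 lower in B6J in DMSO, with a median of -0.05 (10.4% and 10.5% of all genes). With the inhibitor 1 was higher and 2 lower, with a median of -0.31 (8.9% and 9.47% of all genes). Apoa2, an apolipoprotein, had 12.9, 13.9 and 15.8 CPM in B6J with the inhibitor and 13.9, 13.0 and 13.0 CPM in B6J with DMSO. In 129 it had 0.373, 0.181 and 0.121 CPM with the inhibitor and 0.0961, 0.168 and 0.218 CPM with DMSO, so B6J was higher by 6.37 in DMSO (SE 0.339, edgeR adjusted p = 3.05e-07) and by 5.98 with the inhibitor (SE 0.326, edgeR adjusted p = 3.9e-07). Hnf4a, a nuclear receptor of visceral endoderm, ran the other way. It had 0.114, 0.182 and 0.252 CPM in B6J with the inhibitor, against 1.64, 2.32 and 2.13 CPM in 129 with the inhibitor (log2 difference -3.45, SE 0.721, edgeR adjusted p = 0.00591). In DMSO it had 0.0378, 0.0722 and 0.027 CPM in B6J, against 8.78, 1.34 and 1.36 CPM in 129 (-6.32, SE 0.874, edgeR adjusted p = 0.000415, and -4.82, edgeR adjusted p = 9.01e-06, without replicate 1 of 129 with DMSO). These B6J levels were very low, so the size of the difference in DMSO is uncertain. Rbp4, a retinol carrier that visceral endoderm secretes, was the one tested gene of the visceral list called for the difference between responses (B6J minus 129), at -1.93 (SE 0.326, edgeR adjusted p = 0.0174).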
